A study of Mus musculus with 30 samples.

Results

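The genes of the cartilage collagens, *Col2a1* for type II, *Col9a1*, *Col9a2* and *Col9a3* for type IX and *Col11a1* and *Col11a2* for type XI, were followed through the fracture callus of WT and P-Apex1KO mice. They were chosen by name as the genes of these 3 collagen types, and all 6 were found among the 55416 genes of the count table. Bulk RNA sequencing of closed, non-stabilized tibial fractures covered 30 adult mice at 3-, 6-, 10- and 14-days post-fracture (-dpf). The paper describes the 3-dpf tissue as tibia dissected around the fracture and the 6-dpf tissue as whole callus. P-Apex1KO mice carried *Prrx1*-Cre and 2 floxed *Apex1* alleles (Prrx1-Cre;Apex1 C/C), and WT mice were littermates that carried *Prrx1*-Cre with 1 floxed allele, or floxed alleles without Cre. Groups held 4 WT and 4 P-Apex1KO mice at 3-dpf, 5 WT and 3 P-Apex1KO mice at 6-dpf, 4 WT and 3 P-Apex1KO mice at 10-dpf and 4 WT and 3 P-Apex1KO mice at 14-dpf. *Prrx1*-Cre acts in limb bud mesenchyme from embryonic life, so the deletion precedes the fracture, and blood, vessel and muscle cells of the callus keep *Apex1*. At 14-dpf all 3 P-Apex1KO mice were female and 1 of the 4 WT mice was, so the results at that time are given with and without her. Each library was 1 mouse and held 18334389 to 43111491 counts on genes.

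Cartilage fibrils are built around type II collagen, a trimer of identical *Col2a1* chains. Type XI collagen lies inside the fibril and sets its width. It is assembled from the *Col11a1* and *Col11a2* chains together with a chain that *Col2a1* also encodes. Type IX collagen, with 1 chain from each of its genes, decorates the fibril surface and is crosslinked to type II. In a healing fracture, chondrocytes of the soft callus lay down these collagens before the cartilage is resorbed and replaced by bone. *Col11a1* and *Col11a2* are also known from tissues outside cartilage, bone among them.

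In GRCm39, *Col2a1* (ENSMUSG00000022483) lies on the minus strand at chr15:97873483-97902689. *Col9a1* (ENSMUSG00000026147, chr1:24216691-24291765), *Col9a2* (ENSMUSG00000028626, chr4:120896582-120912523), *Col9a3* (ENSMUSG00000027570, chr2:180239583-180264063), *Col11a1* (ENSMUSG00000027966, chr3:113824134-114014367) and *Col11a2* (ENSMUSG00000024330, chr17:34258108-34285664) lie on the plus strand. The annotation places no other gene on the same strand over any of them, and counting was strand-specific. Genes on the opposite strand overlap *Col2a1*, *Col9a3* and *Col11a1*.

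Because these genes, on 6 different chromosomes, moved together in much of what follows, the sequences before their starts are shown for 1 chain of type IX and both chains of type XI. Each is the 250 bases before a RefSeq start site (build GRCm38.p6, plus strand), at chr4:121039316-121039565 for *Col9a2*, chr3:114030290-114030539 for *Col11a1* and chr17:34038888-34039137 for *Col11a2*. Capitals mark matches to any of 6 short motifs searched on both strands.

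Col9a2: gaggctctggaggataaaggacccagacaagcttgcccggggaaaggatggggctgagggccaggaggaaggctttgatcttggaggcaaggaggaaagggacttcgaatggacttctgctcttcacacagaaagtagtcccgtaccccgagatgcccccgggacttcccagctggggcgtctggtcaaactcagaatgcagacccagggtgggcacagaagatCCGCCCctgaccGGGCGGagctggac

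Col11a1: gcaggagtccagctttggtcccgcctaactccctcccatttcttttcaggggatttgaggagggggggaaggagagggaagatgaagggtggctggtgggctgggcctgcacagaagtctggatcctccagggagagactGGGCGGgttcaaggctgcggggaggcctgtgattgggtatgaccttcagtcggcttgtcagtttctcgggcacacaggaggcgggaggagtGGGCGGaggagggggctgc

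Col11a2: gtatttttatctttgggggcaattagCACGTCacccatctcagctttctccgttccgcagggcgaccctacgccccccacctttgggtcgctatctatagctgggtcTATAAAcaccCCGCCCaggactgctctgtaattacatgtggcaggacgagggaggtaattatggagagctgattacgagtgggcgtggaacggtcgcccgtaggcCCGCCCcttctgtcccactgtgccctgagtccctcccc

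Of the 6 members, 4 were in the promoter table, and *Col9a1* had 2 windows there. The GC box GGGCGG matched 2 times each in the windows of *Col9a2*, *Col11a1* and *Col11a2*, and 32.7% of all 32851 windows of this length held it. The TATA motif TATAAA matched once, in *Col11a2*, and was in 12.4% of all windows. The hypoxia core NACGTG also matched once, in *Col11a2*, and was in 16.5% of all windows. The SOX motifs ACAAAG and ACAATG, held by 16.5% and 10.7% of all windows, and the AP-1 motif TGANTCA, held by 6.75%, had no match in any of the 5 windows of the members. Neither window of *Col9a1* held any of the 6 motifs. A match is a run of letters, and neither a match nor its absence says whether a factor binds.

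Levels below are counts per 1e6 counts on genes after TMM scaling over all libraries (CPM), and a level compared between genes is CPM per kb of the canonical transcript. In WT callus at 6-dpf, *Col2a1* ranked 2 among all genes by mean CPM, at 24066 ± 6106 (SD, n = 5), and all 6 genes together took 3.26% ± 0.608 of the counts. Per kb of transcript the order there was *Col2a1* at 4613 ± 1170.3, *Col11a1* at 685 ± 102, *Col9a1* at 531 ± 105, *Col9a3* at 469 ± 111, *Col9a2* at 407 ± 108 and *Col11a2* at 345 ± 64.8. The step from *Col2a1* to *Col11a1* was far outside the spread of the mice, and each of the other neighbours in that order differed by less than the sum of their SDs. Type IX chains were thus at similar levels to each other, while *Col11a1* stood at 199% of *Col11a2* per kb, from the mean log2 ratio.

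**Figure D1:**
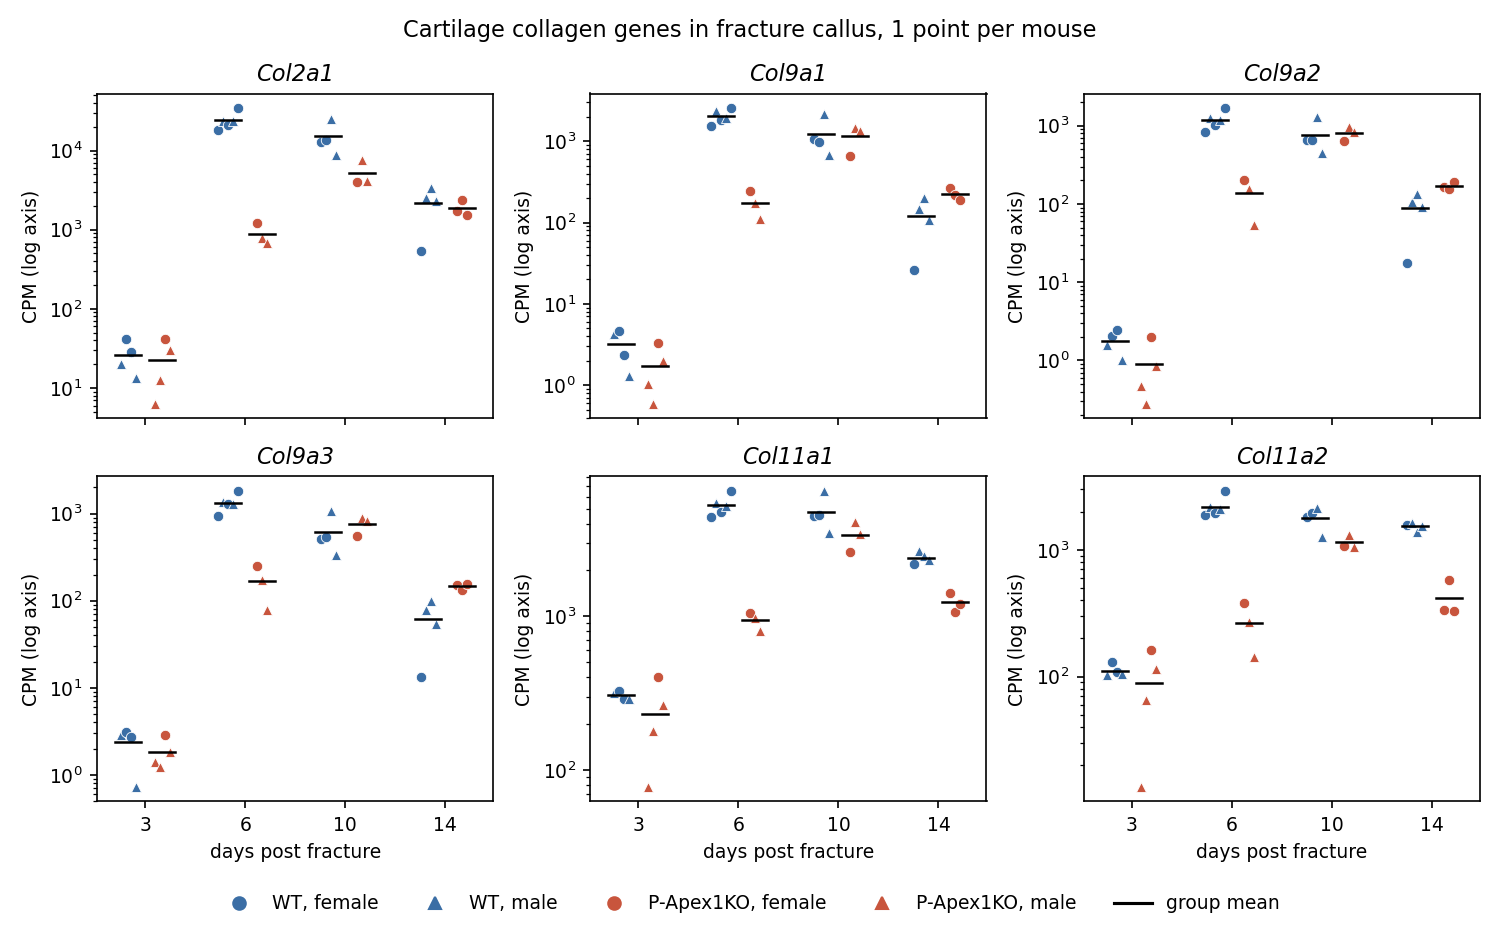
CPM of each cartilage collagen gene (log axis) against days post fracture, 1 point per mouse, blue for WT and red for P-Apex1KO, circles for females and triangles for males, black bars for group means. At 6-dpf every P-Apex1KO mouse lies below every WT mouse for all 6 genes, and at 14-dpf the WT female lies lowest for Col2a1 and the type IX genes, at 534 CPM for Col2a1.

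At 3-dpf the 3 collagen types differed in level before any difference between genotypes could be called. In WT mice *Col11a1* read 315, 327, 290.4 and 287 CPM and *Col11a2* read 102, 129.8, 109 and 105 CPM. *Col2a1* was at 19.8, 41.6, 28.8 and 13.5 CPM in the same mice. The type IX genes lay near the limit of counting, from 0.735 CPM (*Col9a3*, WT mouse 4, 25 counts) to 4.7 CPM (*Col9a1*, WT mouse 2). Per kb, *Col11a1* (39.5 ± 2.5 CPM per kb, SD, n = 4) therefore stood above *Col11a2* (17.6 ± 1.96), *Col2a1* (4.97 ± 2.34) and the type IX genes (0.613 to 0.828), and both type XI genes lay above *Col2a1* per kb in each of the 8 mice of that time.

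In the libraries labelled P-Apex1KO at 3-dpf, *Col11a1* read 77.8, 179.6, 402 and 266 CPM, *Col11a2* 13.6, 65.1, 164 and 115 CPM and *Col2a1* 6.34, 12.7, 41.8 and 30.4 CPM. Mouse 1 was lowest for these 3 genes, mouse 3 was above every WT mouse for *Col11a1*, *Col11a2* and *Col2a1*, and the groups overlapped for all 6 genes. Mouse 1 also had the lowest summed level of osteoblast markers, at 57.7 CPM against 328 to 584 CPM in the other 7 mice, and of osteoclast markers, at 386 CPM against 697 to 1077 CPM. Skeletal muscle markers were highest in mouse 1, at 12562 CPM, and their summed level was 5224 to 12562 CPM in this group and 3559 to 5142 CPM in WT mice, although none of the 8 was called. Their part in the collagen levels was not tested. *Apex1* itself did not differ at this time (log2 fold change -0.15 ± 0.19, adjusted p = 0.927) and was higher in mouse 4 of this group than in any WT mouse, so the genotype is taken from the label alone. None of the 6 genes was called by edgeR, whose quasi-likelihood test here took sex as a covariate (threshold of 0.05 on p-values adjusted by Benjamini-Hochberg over all genes), with log2 fold changes from -0.86 ± 0.38 for *Col9a2* to 0.08 ± 0.46 for *Col2a1*, whose sign turned under other settings. The test called 0.0% of 19866 genes at 3-dpf, where 1216 genes had an unadjusted p under 0.05 and DESeq2 called 68.

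From 3- to 6-dpf in WT mice all 6 genes rose, against 15.4% of 20468 genes that rose in the same fit. The tissue taken differed between these times as the paper describes it, so changes with time and with tissue cannot be told apart. *Col2a1* rose by 9.88 ± 0.57 on the log2 scale (adjusted p = 4.19e-08), *Col9a1* by 9.26 ± 0.53, *Col9a2* by 9.36 ± 0.52 and *Col9a3* by 9.10 ± 0.47. The type XI genes, already present at 3-dpf, rose by 4.06 ± 0.34 for *Col11a1* (adjusted p = 1.37e-06) and 4.22 ± 0.52 for *Col11a2* (adjusted p = 5.06e-05). In P-Apex1KO mice 5 of the 6 rose, against 7.1% of all genes tested. *Col9a2* rose by 7.20 ± 0.51 there, *Col9a1* by 6.64 ± 0.50, *Col9a3* by 6.43 ± 0.44, *Col2a1* by 5.29 ± 0.48 and *Col11a1* by 2.05 ± 0.34. *Col11a2*, with a log2 change of 1.56 ± 0.50, had an adjusted p of 0.0547.

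Whether the rise was smaller in P-Apex1KO mice was tested as a change of the genotype difference between the 2 times. It was smaller for 3 of the 6 genes, against 0.987% of all genes tested: the genotype difference moved by -4.58 ± 0.61 for *Col2a1* (adjusted p = 0.00277), by -2.67 ± 0.54 for *Col9a3* (adjusted p = 0.0312) and by -2.01 ± 0.46 for *Col11a1* (adjusted p = 0.047). The values of the others were -2.63 ± 0.61 for *Col9a1* (adjusted p = 0.0548), -2.66 ± 0.69 for *Col11a2* (adjusted p = 0.0905) and -2.16 ± 0.65 for *Col9a2* (adjusted p = 0.155). The call of *Col2a1* held with each of the 16 mice left out, whereas that of *Col9a3* was lost in 7 of these fits (adjusted p up to 0.1) and that of *Col11a1* in 14 (adjusted p up to 0.149). DESeq2 called all 6, against 2.45% of all genes. Of 8 other settings with all mice, DESeq2 among them, the call of *Col2a1* was lost in 1 (the replicate number in place of sex, adjusted p = 0.0731), that of *Col9a3* in 4 (adjusted p up to 0.213) and that of *Col11a1* in 3 (adjusted p up to 0.265).

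At 6-dpf all 6 cartilage collagen genes were lower in P-Apex1KO callus, while 5.61% of the 20260 genes tested were lower and 5.31% were higher. *Apex1* was lower at this time (log2 fold change -0.67 ± 0.11, adjusted p = 0.0071), with no overlap between groups.

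*Col2a1*, the chain of the main cartilage fibril, read 17989.8, 23389, 21001, 23773 and 34178 CPM in WT mice and 1225, 774 and 676 CPM in P-Apex1KO mice. Every P-Apex1KO mouse lay below every WT mouse, and by mean CPM the gene ranked 74 among all genes in P-Apex1KO callus. The log2 fold change was -4.68 ± 0.32 (adjusted p = 0.000271).

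*Col9a1* read 1539.7, 2335, 1834, 1918 and 2544 CPM in WT mice and 243, 174 and 109 CPM in P-Apex1KO mice, a log2 fold change of -3.48 ± 0.29 (adjusted p = 0.00041). *Col9a2* read 831, 1267, 1011, 1174 and 1673 CPM against 200.2, 156 and 54.3 CPM, and its log2 fold change was -3.06 ± 0.42 (adjusted p = 0.00344). *Col9a3* read 929, 1375, 1276, 1298 and 1811 CPM against 253, 172 and 77.8 CPM (log2 fold change -2.93 ± 0.36, adjusted p = 0.00223). Mouse 3 was the lowest of the P-Apex1KO mice and mouse 1 the highest for all 3 type IX genes, and mouse 5 was the highest WT mouse.

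*Col11a1* read 4454, 5491, 4783, 5225 and 6507 CPM in WT mice and 1044, 968 and 803 CPM in P-Apex1KO mice (log2 fold change -2.45 ± 0.19, adjusted p = 0.000389). *Col11a2* read 1867, 2159, 1943, 2085 and 2896 CPM against 380.1, 269.7 and 143 CPM (log2 fold change -2.97 ± 0.29, adjusted p = 0.000747). *Col11a1* varied least among the P-Apex1KO mice, with a coefficient of variation of 13.2%, against 32.8% for *Col2a1* and 54.7% for *Col9a2*. The groups overlapped for none of the 6 genes, and 11.9% of all genes tested were likewise lower without overlap. Every alternative with all mice and every fit with 1 mouse left out kept all 6 calls at 6-dpf.

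In bulk tissue, fewer chondrocytes and less RNA per chondrocyte cannot be told apart. The other chondrocyte markers, *Acan*, *Sox9*, *Matn1*, *Matn3*, *Hapln1*, *Snorc*, *Cnmd* and *Col10a1*, were all lower at 6-dpf (8 of 8, median log2 fold change -3.01, beside a median of -3.02 for the 6 collagen genes and 0.01 for all genes), and their summed level ran from 10121 to 17655 CPM in WT mice and from 1282 to 2509 CPM in P-Apex1KO mice. Of 8 skeletal muscle markers 7 were higher, with a summed level of 3160 to 5826 CPM in WT mice and 7451 to 17464 CPM in P-Apex1KO mice. Of 7 osteoblast markers 6 were lower. Of 8 leukocyte markers 3 were higher (2275 to 2841 CPM in WT and 3046 to 4002 CPM in P-Apex1KO mice), as were 3 of 5 adipocyte markers (75.7 to 169 CPM against 114 to 207 CPM). Their part in the results was not tested. With library size alone in place of TMM, which moved the median of all genes to 0.20, 814 genes were lower and 2780 higher, and the 6 calls held.

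**Figure D2:**
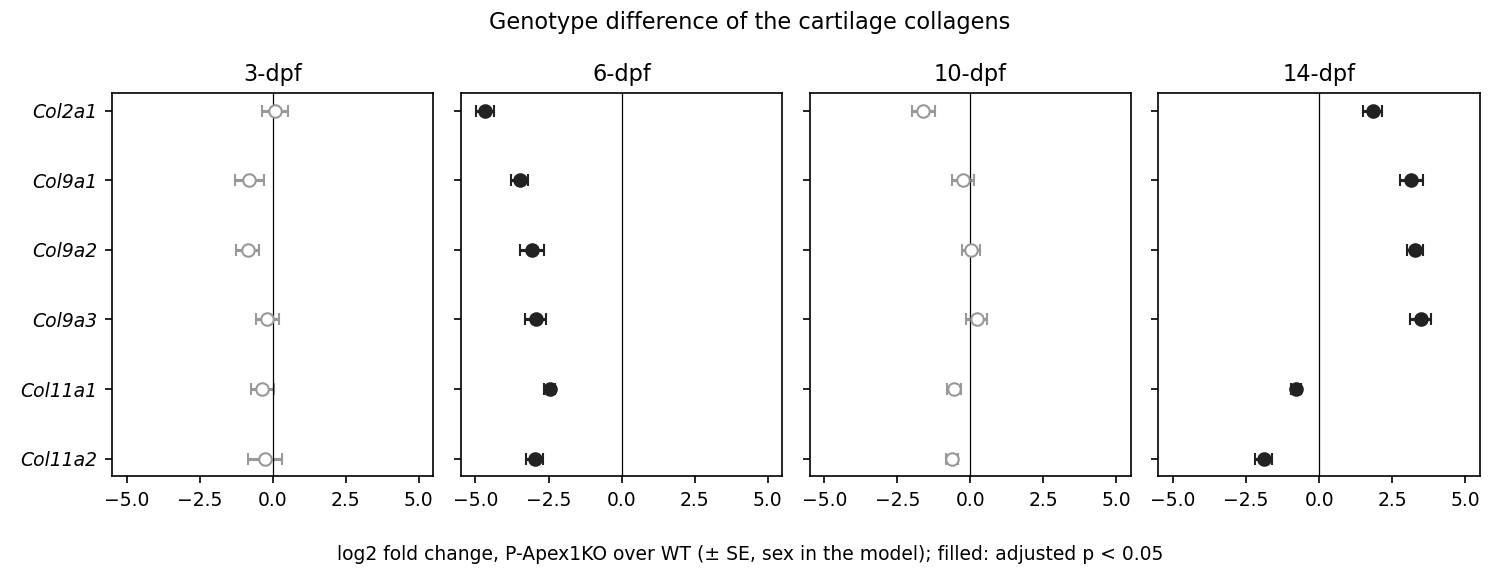
Log2 fold change of each gene, P-Apex1KO over WT, with its standard error at each time point, from edgeR with sex in the model; filled points passed the threshold. The 6 genes lie between -4.68 and -2.45 at 6-dpf and spread from -1.90 to 3.48 at 14-dpf, where the fit rests on the only WT female.

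The chains were also compared as ratios of counts within each mouse, which need no scaling between libraries. The 5 other chains were each set against *Col2a1*, and 3 ratios were taken within types IX and XI. These 8 ratios per time point were tested by a two-sided exact permutation test over mice, with Benjamini-Hochberg adjustment over the 8. At 6-dpf *Col11a1* counts were 24.8, 23.5, 22.8, 22 and 19% of *Col2a1* counts in WT mice and 85.2, 125 and 119% in P-Apex1KO mice, a log2 ratio higher by 2.28. The difference was 1.65 for *Col9a3*, 1.63 for *Col11a2*, 1.49 for *Col9a2* and 1.18 for *Col9a1* over *Col2a1*. All 5 ratios to *Col2a1* were higher in every P-Apex1KO mouse than in every WT mouse. They share the *Col2a1* counts as denominator, and 99.4% of all other genes tested were likewise higher over *Col2a1* without overlap, so the direction is no result about the 5 chains. Each of these had an exact p of 0.0357, the smallest that 5 against 3 mice allow, and an adjusted p of 0.0476. Within type XI, *Col11a1* over *Col11a2* was also higher by 0.65 without overlap (exact p = 0.0357, adjusted p = 0.0476). *Col11a2* itself was lower (log2 fold change -2.97), and the share of all genes higher over it was not counted. The direction of this ratio is therefore not read as particular to *Col11a1*. Within type IX the ratios overlapped between genotypes: *Col9a1* over *Col9a2* differed by -0.31 and *Col9a3* over *Col9a2* by 0.16 (exact p = 0.214, adjusted p = 0.214 for both). With any 1 mouse left out, or with mice of the same number paired, no ratio passed, since those smaller designs cannot reach the threshold after adjustment.

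**Figure D3:**
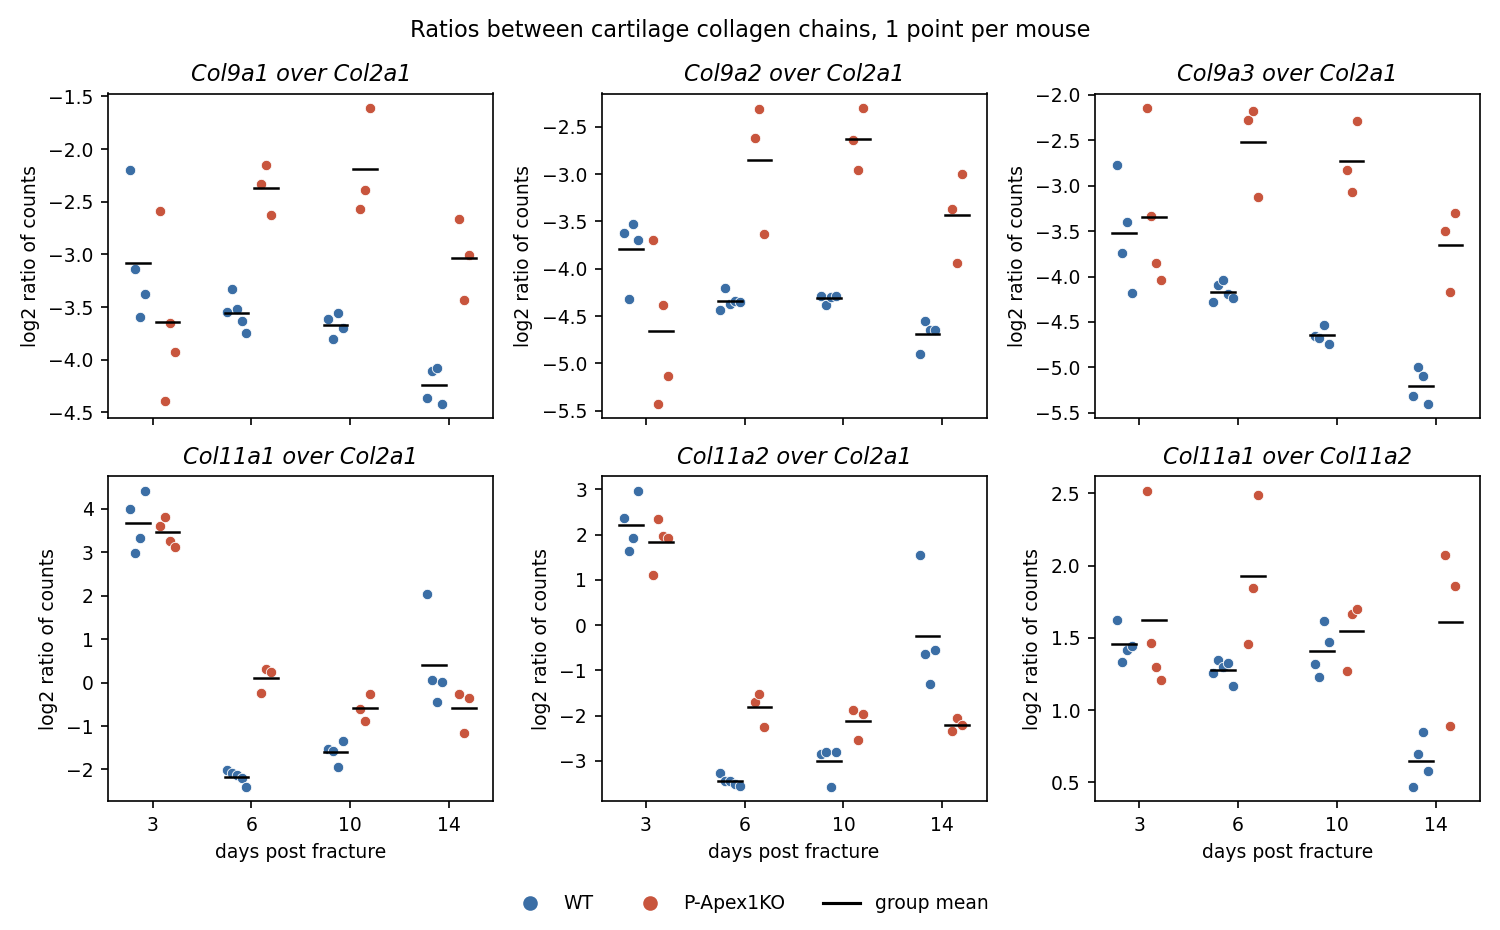
Log2 ratio of counts between chains, 1 point per mouse, against days post fracture, blue for WT and red for P-Apex1KO, black bars for group means. The type IX genes over Col2a1 lie higher in every P-Apex1KO mouse than in every WT mouse at 6-, 10- and 14-dpf, and overlap at 3-dpf. The share of all other genes that also lie higher over Col2a1 without overlap is 99.4% at 6-dpf, 68.9% at 10-dpf and 1.38% at 14-dpf.

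At 10-dpf none of the 6 genes was called, with 3.44% of 18910 genes called lower and 3.01% higher. At an unadjusted p under 0.05 there were 3 of the 6, *Col2a1*, *Col11a1* and *Col11a2*, against 24.3% of all genes. DESeq2 called those 3 as lower, against 5.12% of all genes. *Apex1* was lower (log2 fold change -0.65 ± 0.13, adjusted p = 0.0278). *Col2a1* read 12941, 13655, 25111 and 8850.2 CPM in WT mice and 3962, 7566 and 4063 CPM in P-Apex1KO mice. These groups did not overlap, which held for 10.5% of all genes in this direction, and the log2 fold change was -1.62 ± 0.39 (adjusted p = 0.052). The type IX genes overlapped widely: *Col9a1* read 1055, 977, 2134 and 684 CPM in WT mice and 666, 1450.3 and 1329 CPM in P-Apex1KO mice, with a log2 fold change of -0.24 ± 0.38 (adjusted p = 0.757). *Col9a2* read 664, 652, 1276 and 454 CPM against 636, 974 and 823 CPM, and *Col9a3* 516, 535, 1086 and 332 CPM against 557, 898 and 829.9 CPM. The log2 fold changes were 0.02 ± 0.32 (adjusted p = 0.977) for *Col9a2* and 0.22 ± 0.37 (adjusted p = 0.782) for *Col9a3*, and the sign of each type IX gene turned with some mice left out. *Col11a1* read 4505, 4585, 6489 and 3484 CPM against 2601, 4129 and 3401 CPM (log2 fold change -0.55 ± 0.23, adjusted p = 0.19). *Col11a2* read 1808, 1952, 2120.1 and 1259 CPM against 1076, 1305 and 1048 CPM (log2 fold change -0.62 ± 0.20, adjusted p = 0.0986).

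WT mouse 3 was the highest and WT mouse 4 the lowest of the WT group for all 6 genes at 10-dpf. Without WT mouse 4, *Col2a1* (log2 fold change -1.92, adjusted p = 0.0107), *Col9a1* (-0.60, adjusted p = 0.0158), *Col11a1* (-0.78, adjusted p = 0.0154) and *Col11a2* (-0.81, adjusted p = 0.0137) were called lower, and without P-Apex1KO mouse 2 *Col2a1* was (-1.89, adjusted p = 0.0463). The median of the 6 log2 fold changes was -0.40, beside -0.00 for all genes, and with library size alone 464 genes were lower and 849 higher. The 8 other chondrocyte markers had 0 calls at this time, with summed levels of 14173 to 24569 CPM in WT mice and 11782 to 16497 CPM in P-Apex1KO mice. Of 6 osteoclast markers 5 were lower (3247 to 7506 CPM in WT and 1165 to 1927 CPM in P-Apex1KO mice), as were 5 of 7 osteoblast markers (6374 to 7464 CPM against 3950.0 to 5627 CPM). Of 5 adipocyte markers 4 were higher (47.8 to 61.9 CPM against 88.1 to 141 CPM), as were 2 of 8 leukocyte markers (1184 to 2219 CPM against 2393 to 3240.4 CPM). Their part in the collagen levels was not tested.

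The 5 ratios to *Col2a1* were again higher in every P-Apex1KO mouse at 10-dpf, as were those of 68.9% of all other genes. Their direction is therefore not read as a result about the 5 chains. *Col9a3* counts were 3.99, 3.92, 4.33 and 3.75% of *Col2a1* counts in WT mice and 14.1, 11.9 and 20.4% in P-Apex1KO mice, a log2 ratio higher by 1.92. The differences were 1.68 for *Col9a2*, 1.48 for *Col9a1*, 1.02 for *Col11a1* and 0.88 for *Col11a2* over *Col2a1*. *Col9a3* over *Col9a2* was higher by 0.24, also without overlap but by a narrow gap. The highest WT mouse was at -0.232 and the lowest P-Apex1KO mouse at -0.191 in log2. No share over all genes was counted for that ratio, so its direction is not read as particular to *Col9a3*. The exact p of these 6 ratios was 0.0571, the smallest that 4 against 3 mice allow, so none could pass the threshold. *Col11a1* over *Col11a2* differed by 0.14 and overlapped (exact p = 0.343).

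Between 10- and 14-dpf the collagen types parted in WT mice. The fall was called for 5 of the 6 genes, against 4.92% of 19705 genes that fell. *Col9a1* fell by 3.86 ± 0.48 on the log2 scale (adjusted p = 0.00101), *Col9a3* by 3.76 ± 0.49, *Col9a2* by 3.54 ± 0.47, *Col2a1* by 3.21 ± 0.46 (adjusted p = 0.00149) and *Col11a1* by 1.07 ± 0.18 (adjusted p = 0.00208). *Col11a2* was at 1808, 1952, 2120.1 and 1259 CPM at 10-dpf and at 1574, 1629, 1369 and 1553 CPM at 14-dpf, a log2 change of -0.22 ± 0.19 (adjusted p = 0.528). In P-Apex1KO mice the 2 calls, against 0.228% of all genes tested, were both type XI genes: *Col11a2*, which fell by 1.5 ± 0.25, and *Col11a1*, which fell by 1.27 ± 0.22 (adjusted p = 0.0366 for both). The values of the type IX genes ran from -1.70 ± 0.54 (*Col9a3*, adjusted p = 0.193) to -1.49 ± 0.53 (*Col9a1*, adjusted p = 0.242), and that of *Col2a1* was -0.85 ± 0.52 (adjusted p = 0.488). Both calls were fragile: that of *Col11a1* was lost in 11 of 14 fits with 1 mouse left out (adjusted p up to 0.108) and that of *Col11a2* in 9 (adjusted p up to 0.103). All 6 genes were lower in every P-Apex1KO mouse of 14-dpf than in every one of 10-dpf. The share of all genes for which this held was not counted, so it is not read as a result about the 6. The P-Apex1KO mice of 14-dpf were all female, so the log2 changes lean on the sex term. Of 8 other settings with all mice, *Col9a1* was called in 1, *Col9a2* in 2, *Col9a3* in 2 and *Col2a1* in 0.

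A change of the genotype difference from 10- to 14-dpf was called for none of the 6 genes, and for 0.436% of all genes tested. At an unadjusted p under 0.05 there were 5 of the 6, against 13.1% of all genes, and DESeq2 called *Col11a2* lower, as it did 1.53% of all genes. That gene had the lowest adjusted p among the 6 (log2 change -1.27 ± 0.33, adjusted p = 0.132), and it passed without P-Apex1KO mouse 2 of 14-dpf (-1.56, adjusted p = 0.016). *Col2a1* had a value of 2.35 ± 0.76 (adjusted p = 0.218).

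**Figure D4:**
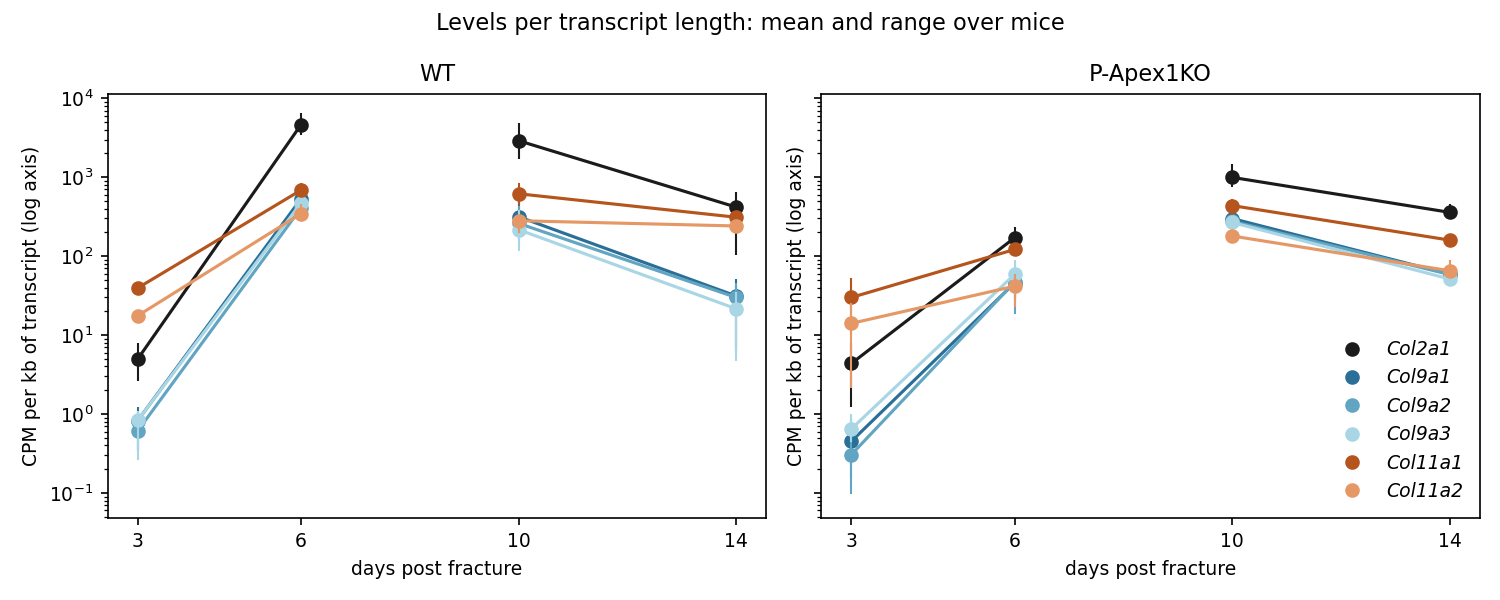
Mean CPM per kb of transcript (log axis) of each gene against days post fracture, with vertical lines for the range over mice, WT on the left and P-Apex1KO on the right; 6- and 10-dpf are not joined because the sample names change between them. In WT the type XI genes lead at 3-dpf (39.5 for Col11a1) and Col11a2 stands at 241 at 14-dpf, while in P-Apex1KO it stands at 65.3.

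At 14-dpf the type XI genes were lower in P-Apex1KO callus and the genes of types II and IX did not follow them. *Apex1* was lower in every P-Apex1KO mouse at this time, with a log2 fold change of -0.29 ± 0.19 (adjusted p = 0.367).

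*Col11a2* read 1574, 1629, 1369 and 1553 CPM in WT mice and 338, 573 and 332 CPM in P-Apex1KO mice, a log2 fold change of -1.90 ± 0.29 (adjusted p = 0.00792). *Col11a1* read 2180.0, 2645, 2466 and 2319.7 CPM against 1425, 1063 and 1206 CPM, a log2 fold change of -0.80 ± 0.17 (adjusted p = 0.0242). Neither gene overlapped between groups. The WT female lay among the WT males for *Col11a2* and was the lowest WT mouse for *Col11a1*. These were 2 of the 6 genes lower, against 7.04% of 20228 genes called lower and 23.4% lower without overlap. Without a sex term the values were -1.84 for *Col11a2* (adjusted p = 0.000446) and -0.93 for *Col11a1* (adjusted p = 0.000763), and with the WT female left out as well, a setting chosen after seeing the data, they were -1.83 (adjusted p = 0.0017) and -0.97 (adjusted p = 0.00206). *Col11a2* passed in every alternative and with each mouse left out that the model allowed, with log2 fold changes from -2.21 to -1.62. *Col11a1* was not called with library size alone (-0.53, adjusted p = 0.0867) or without any 1 of the WT males (adjusted p up to 0.0713).

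With sex in the model the other 4 genes came out higher, against 4.28% of all genes called higher. The log2 fold changes were 1.84 ± 0.33 for *Col2a1* (adjusted p = 0.0132), 3.15 ± 0.40 for *Col9a1* (adjusted p = 0.00455), 3.29 ± 0.27 for *Col9a2* (adjusted p = 0.00092) and 3.48 ± 0.36 for *Col9a3* (adjusted p = 0.00225). This estimate compares the P-Apex1KO females with the WT female, WT mouse 1. *Col2a1* read 534 CPM in that mouse and 2525, 3376 and 2287 CPM in the WT males, and 1708, 2367 and 1538 CPM in the P-Apex1KO females. *Col9a3* read 13.3 CPM in the WT female, 79.1, 98.9 and 54.2 CPM in the WT males and 151, 132 and 156 CPM in the P-Apex1KO females. For all 4 genes the WT female was the lowest of the 7 mice. *Col9a2* read 17.8 CPM in her, 107, 135 and 91.2 CPM in the WT males and 166, 155 and 193 CPM in the P-Apex1KO females. *Col9a1* read 25.9 CPM in her, 147, 199.6 and 107 CPM in the WT males and 269, 219 and 192 CPM in the P-Apex1KO females, the last of these below 1 WT male.

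Without a sex term none of these 4 passed, and the values were -0.18 for *Col2a1* (adjusted p = 0.825), 0.96 for *Col9a1* (adjusted p = 0.235), 1.00 for *Col9a2* (adjusted p = 0.209) and 1.29 for *Col9a3* (adjusted p = 0.115). With the WT female left out as well, so that P-Apex1KO females stand against WT males, *Col9a2* (0.67, adjusted p = 0.0146) and *Col9a3* (0.96, adjusted p = 0.0113) were higher, *Col9a1* was at 0.63 (adjusted p = 0.0716) and *Col2a1* at -0.50 (adjusted p = 0.109). *Col9a2* and *Col9a3* were above all 4 WT mice in each P-Apex1KO mouse, which held for 18.5% of all genes tested in this direction, whereas *Col9a1* and *Col2a1* overlapped. For every gene, the type XI genes included, the sex-adjusted estimate of the 14-dpf fit rests on the single WT female. Without her, sex and genotype cannot be told apart in that fit. With all 30 libraries in one model, the sex term drew on the other times as well. None of the 4 genes of types II and IX was called higher there, and *Col2a1* was at -0.39.

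**Figure D5:**
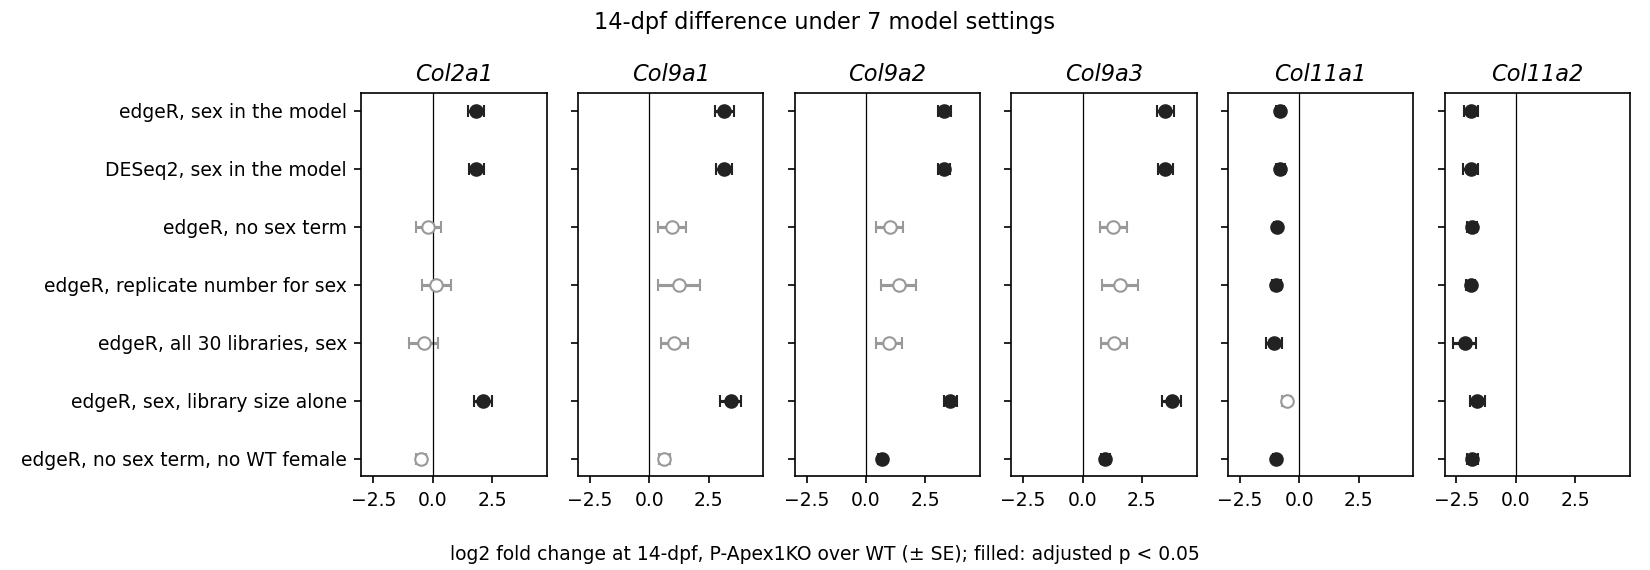
Log2 fold change at 14-dpf, P-Apex1KO over WT, with its standard error under 7 model settings for each gene; filled points passed the threshold. Col11a2 stays between -2.16 and -1.62, whereas Col2a1 runs from -0.50 without the WT female to 2.11 with library size alone.

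The WT female also stood apart in the other chondrocyte markers, with a summed level of 893 CPM against 3440 to 4759 CPM in the WT males. The P-Apex1KO females ran from 3441 to 7361 CPM and overlapped the WT males. All 8 markers were called higher with sex in the model, against 4.28% of all genes, and these estimates rest on the WT female. Of 7 osteoblast markers 4 were lower (summed level 5006 to 6928 CPM in WT and 1939 to 3562 CPM in P-Apex1KO mice), as were 6 of 6 osteoclast markers (12059 to 13695 CPM against 1587 to 3090 CPM). The summed level of 8 skeletal muscle markers ran from 1276 to 4692 CPM in WT and from 3260 to 11611 CPM in P-Apex1KO mice, with 0 calls. The highest WT value was that of the WT female, and the WT males, at 1276 to 1539 CPM, lay below every P-Apex1KO mouse. Of 4 erythroid markers 3 were higher (715 to 797 CPM in WT and 1650 to 1984 CPM in P-Apex1KO mice). Of 8 leukocyte markers 3 were higher and 1 lower (1859 to 2087 CPM against 2431 to 3316 CPM), and of 5 endothelial markers 2 were lower (720 to 787 CPM against 471 to 558 CPM). The part of these cell types in the collagen levels was not tested. With library size alone, which moved the median of all genes from 0.04 to 0.31, 766 genes were lower and 1878 higher.

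At 14-dpf *Col9a3* counts were 2.5, 3.13, 2.93 and 2.37% of *Col2a1* counts in WT mice and 8.86, 5.56 and 10.1% in P-Apex1KO mice, a log2 ratio higher by 1.55, and *Col9a2* and *Col9a1* over *Col2a1* were higher by 1.26 and 1.2. None of the 3 overlapped, and 1.38% of all other genes were higher over *Col2a1* without overlap. The WT female lay within the range of the WT males for *Col9a3* and *Col9a1* over *Col2a1* and below them for *Col9a2* over *Col2a1*, at 3.34% against 3.99 to 4.25%. *Col11a2* over *Col2a1* differed by -1.97 in log2: counts were 295, 64.5, 40.6 and 67.9% of *Col2a1* in WT mice, the first of these the female, and 19.8, 24.2 and 21.6% in P-Apex1KO mice, and 2.6% of all other genes were lower over *Col2a1* without overlap. Without the WT female the difference was -1.37. *Col11a1* over *Col2a1* differed by -1.01 and overlapped (exact p = 0.171), and by -0.47 without her. *Col11a1* over *Col11a2*, at 139, 162, 180 and 149% in WT mice and 422, 185 and 363% in P-Apex1KO mice, was higher by 0.96. *Col11a2* itself was lower at this time (log2 fold change -1.90), and the share of all genes higher over it was not counted. *Col9a3* over *Col9a2* was higher by 0.29 without overlap, and no share over all genes was counted for it either. The ratios without overlap had an exact p of 0.0571, again the smallest possible with 4 against 3 mice.

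Put in order of mean level, each member was highest in WT callus at 6-dpf and lowest in the libraries labelled P-Apex1KO at 3-dpf. Both groups of 3-dpf overlapped for every member, and WT 6-dpf overlapped the next group for every member but *Col9a3*. For *Col2a1* the order below WT 6-dpf was WT 10-dpf, P-Apex1KO 10-dpf, WT 14-dpf, P-Apex1KO 14-dpf, P-Apex1KO 6-dpf and then both groups of 3-dpf. The neighbours that overlapped were WT 6- and 10-dpf, both groups of 14-dpf and both groups of 3-dpf. For *Col11a2* WT 14-dpf came next after WT 6- and 10-dpf, above P-Apex1KO 10-dpf and without overlap with it. For each type IX gene the means of P-Apex1KO 6-dpf and P-Apex1KO 14-dpf stood above that of WT 14-dpf. P-Apex1KO 6-dpf overlapped WT 14-dpf for each of them, and P-Apex1KO 14-dpf did so for *Col9a1*. Levels at 6- and 10-dpf are listed side by side here and were not tested against each other, because the form of the sample names changes between those times.

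Over all 30 libraries, the genes whose log2 CPM followed the mean of the 6 members most closely were *Matn4* (Pearson r = 0.993), *Hapln1* (r = 0.992), *Wscd2* (r = 0.989), *Susd5* (r = 0.987) and *Fgfr3* (r = 0.983). *Matn4* and *Hapln1* encode a matrilin and the link protein of the cartilage matrix, and *Fgfr3* a growth factor receptor of chondrocytes. These r describe libraries that share the same time course and carry no test. Between members, r ran from 0.908 to 0.996 over the 16 libraries of 3- and 6-dpf. Over the 14 libraries of 10- and 14-dpf it was 0.990 to 0.996 among the type IX genes and 0.820 between *Col11a1* and *Col11a2*. With the type IX genes it was 0.597 to 0.666 for *Col11a1*, 0.132 to 0.214 for *Col11a2* and 0.837 to 0.889 for *Col2a1*. With *Col2a1* it was 0.804 for *Col11a1* and 0.502 for *Col11a2*.

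The genes around these collagens were described by lists, with counts of calls in each fit. Over all genes, 5.61% were called lower and 5.31% higher at 6-dpf, 3.44% and 3.01% at 10-dpf and 7.04% and 4.28% at 14-dpf. The list counts at 14-dpf are with sex in the model unless stated, so they rest on the single WT female. Of 16 regulators of cartilage collagen genes, 11 were lower and 1 higher at 6-dpf (median log2 fold change -0.89, beside 0.01 for all genes). *Ihh*, a hedgehog ligand of prehypertrophic chondrocytes, had the largest decrease (-2.82 ± 0.59, adjusted p = 0.0278), and *Cebpb* was the 1 gene higher (1.00 ± 0.17, adjusted p = 0.00804). *Sox9*, the transcription factor that drives *Col2a1*, was also lower (-1.83 ± 0.28, adjusted p = 0.00589), and its change was not tested against those of the collagen genes. At 10-dpf 2 regulators were lower and none higher, *Pth1r*, the parathyroid hormone receptor, foremost (-1.11 ± 0.16, adjusted p = 0.0132). At 14-dpf 3 were lower, led by *Foxc1* (-1.46 ± 0.24, adjusted p = 0.00969), and 5 were higher, led by *Sox9* (2.24 ± 0.49, adjusted p = 0.0321), which without a sex term was at 0.91 (adjusted p = 0.155).

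Of 19 cartilage matrix partners, 13 were lower and none higher at 6-dpf (median log2 fold change -2.27), *Matn1* the most (-5.03 ± 0.38, adjusted p = 0.00041). *Acan*, the main cartilage proteoglycan, was at -2.44 ± 0.26 (adjusted p = 0.00106). At 10-dpf 1 was lower, *Chad* (-0.82 ± 0.19, adjusted p = 0.0498). At 14-dpf 12 were higher and none lower, with *Ucma* first (5.62 ± 1.19, adjusted p = 0.0284), and without a sex term 7 were.

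Procollagen folding, processing and crosslinking genes, 29 in all, had 19 lower and none higher at 6-dpf (median -0.78), the lysyl oxidase gene *Loxl4* most (-2.87 ± 0.24, adjusted p = 0.000423). At 10-dpf 4 were lower and none higher, *Loxl4* again first (-0.80 ± 0.14, adjusted p = 0.0205). At 14-dpf 10 were lower, led by *Bmp1*, a procollagen C-proteinase (-1.59 ± 0.15, adjusted p = 0.00111), and 2 higher, led by *Colgalt2* (1.48 ± 0.17, adjusted p = 0.00225).

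Among 9 collagen receptors, 3 were lower and 1 higher at 6-dpf (median log2 fold change -0.21). *Itga10*, an integrin chain that binds type II collagen, had the largest decrease (-1.68 ± 0.18, adjusted p = 0.00116), and *Lair1*, an inhibitory receptor of leukocytes, was the 1 gene higher (0.92 ± 0.13, adjusted p = 0.00344). *Lair1* was also higher at 10-dpf (0.93 ± 0.18, adjusted p = 0.0265) and 14-dpf (1.17 ± 0.19, adjusted p = 0.0095). At 10-dpf 3 receptors were lower, *Itga2* most (-0.72 ± 0.14, adjusted p = 0.029), and at 14-dpf 4, *Mrc2*, an endocytic collagen receptor, most (-1.42 ± 0.13, adjusted p = 0.00114). Collagen-degrading proteases had no call among the 6 tested of 8 at 6-dpf (median -0.14), 4 lower at 10-dpf and 3 lower and 1 higher at 14-dpf. *Mmp9* had the largest decrease at 10-dpf (-2.05 ± 0.31, adjusted p = 0.0173) and 14-dpf (-2.60 ± 0.31, adjusted p = 0.00308), and *Mmp8* was the 1 gene higher at 14-dpf (1.14 ± 0.17, adjusted p = 0.0062).

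Other collagens set the members in context. Of 8 other fibrillar collagen genes, 5 were lower and none higher at 6-dpf (median log2 fold change -0.76), *Col27a1*, a fibrillar collagen of cartilage, most (-2.21 ± 0.18, adjusted p = 0.00041). *Col1a1* and *Col1a2*, the chains of bone and fibrous collagen, were at -0.88 ± 0.25 (adjusted p = 0.0498) and -0.94 ± 0.23 (adjusted p = 0.0315). At 10-dpf 2 were lower, *Col24a1* (-1.35 ± 0.19, adjusted p = 0.0159) and *Col1a1* (-1.01 ± 0.24, adjusted p = 0.042). At 14-dpf 4 were lower, led by *Col1a1* (-2.55 ± 0.21, adjusted p = 0.000883), and *Col27a1* was higher (0.65 ± 0.14, adjusted p = 0.0219), a value that was -0.01 without a sex term (adjusted p = 0.987). From 10- to 14-dpf in WT mice *Col1a1* rose by 1.01 ± 0.16 (adjusted p = 0.00189) and *Col1a2* by 0.91 ± 0.14 (adjusted p = 0.00168), while 5 of the 6 cartilage collagen genes fell. Of 23 further collagen genes, 7 were lower and none higher at 6-dpf (median -0.44), and *Col10a1*, the collagen of hypertrophic chondrocytes, changed most (-3.96 ± 0.37, adjusted p = 0.000623). At 10-dpf 3 were lower, *Col22a1* most (-1.58 ± 0.23, adjusted p = 0.0177), and 1 higher, *Col28a1* (1.00 ± 0.22, adjusted p = 0.0382). At 14-dpf 3 were lower, *Col13a1* most (-2.57 ± 0.16, adjusted p = 0.000534), and *Col10a1* was higher (2.46 ± 0.50, adjusted p = 0.0234), at 0.63 without a sex term (adjusted p = 0.397). At 3-dpf no list had a call.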

How the data were processed

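RNA from the fracture site or callus of 30 mice was sequenced as stranded, rRNA- and globin-depleted total RNA. The submitters' processing notes name bcl2fastq 2.20. Per the study's methods the authors aligned with STAR 2.7.0d to mm39 and used featureCounts, set to reverse strand and unique mappers, to count reads on Ensembl genes. The deposited values are raw counts per gene for each library, and the authors tested them with DESeq2 1.32.0 with sex as a covariate. The members, gene lists and motifs were chosen with earlier results of these data known.

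Genotypes were compared at each time point with edgeR 4.0.16 (R 4.3.3, limma 3.58.1): filterByExpr, TMM scaling, the quasi-likelihood test (glmQLFit, robust, and glmQLFTest) with genotype and sex. A gene was called at a p under 0.05 after Benjamini-Hochberg adjustment across every gene in the fit. Changes over time, and of the genotype difference over time, were fitted within 3- and 6-dpf and within 10- and 14-dpf. An error after ± is a standard error for a log2 fold change, taken as its size over the root of F, and an SD for a level. Counts on genes ran from 18334389 to 43111491 per library, and at 3-dpf the type IX genes had 9 to 189 counts, so counting error weighs there. Mapping used GENCODE M39 for 54749 of the 55416 genes. Ratios of counts had 0.5 added to each count.

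Alternatives were DESeq2 1.42.0, its size factors in edgeR, library size alone, no filter, no sex term, the 20 most abundant other genes left out of the scaling, all 30 libraries in one model, the replicate number as a block, 5 added in ratios and each mouse left out. A fit at 14-dpf without a sex term and without the WT female was added after seeing the data. Scripts were tested on simulated data. Named genes are the members, *Apex1*, *Acan*, *Sox9*, *Col10a1*, *Col1a1*, *Col1a2*, the largest increase and decrease past the threshold in each list and time point, and the 5 protein-coding genes with at least 1 CPM on average that correlated best with the members. Permutation tests and tables used Python 3.11.15, NumPy 2.4.6, SciPy 1.17.1 and pandas 2.3.3.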

Additional observations from a re-analysis of the deposited data

Results flagged for a closer look

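Among 30 sets examined, each 1 gene in 1 group of 4 or 5 mice, 2 held a mouse far from the rest, where chance gives about 1 in 20. The 6 genes of a group come from the same mice, so the sets are not independent. The 2 are not read as an excess. *Col9a3* was at 0.735 CPM in WT mouse 4 of 3-dpf, below the other WT mice at 2.71 to 3.1 CPM, from 25 counts. *Col11a2* was at 2896 CPM in WT mouse 5 of 6-dpf, above the other WT mice at 1867 to 2159 CPM.

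The genotype difference changed between 3- and 6-dpf, by the test of the change itself (edgeR, adjusted over all genes), for 3 of the 6 genes: by -4.58 for *Col2a1*, by -2.67 for *Col9a3* and by -2.01 for *Col11a1* on the log2 scale. The genotype at 3-dpf rests on the labels, since *Apex1* did not differ there.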

How the results depend on the processing

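At 6-dpf the 6 members were lower in every alternative and with each mouse left out. DESeq2 gave 3 members lower at 10-dpf (0 in the report), all 6 lower in the change of the genotype difference from 3- to 6-dpf (3) and 1 lower in that from 10- to 14-dpf (0). Without a filter on low counts, 1 was lower in the 3-to-6-dpf change and 1 fell from 10- to 14-dpf in P-Apex1KO mice (2), and 4 fell without a sex term and 4 with all 30 libraries in one model. At 14-dpf, library size alone left 1 lower (2), and 0 were higher without a sex term and 0 with all 30 libraries, and 2 without the WT female and sex term (4). The cause of these moves was not tested.

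The replicate numbers did not pair the mice: deviations of same-numbered mice correlated from -0.266 to 0.418. With the replicate block in place of sex, 1 member was lower at 10-dpf, 0 were higher at 14-dpf, 0 were lower in the 3-to-6-dpf change and 1 in the 10-to-14-dpf change, and 0 of the 8 ratios passed at 6-dpf (6), where the pairs are too few to pass. Over all genes at 6-dpf the block gave 677 calls (2212), library size alone 3594. At 10-dpf DESeq2 gave 2149 and no sex term 750 (1221), and at 14-dpf no sex term gave 6849 and all 30 libraries 6188 (2289).

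With 1 mouse left out, members lower ranged from 0 to 4 at 10-dpf, from 1 to 2 at 14-dpf, from 1 to 5 in the 3-to-6-dpf change, from 0 to 2 from 10- to 14-dpf in P-Apex1KO mice and from 0 to 1 in the 10-to-14-dpf change, and 0 ratios passed at 6-dpf, where fewer mice cannot pass. The sex-adjusted fit at 14-dpf could not be made without the WT female. Without P-Apex1KO mouse 1 of 3-dpf, 5 were lower in the 3-to-6-dpf change.

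Signs turned with 1 mouse left out for genes that were not called. At 3-dpf *Col2a1* ranged from -0.36 to 0.31, *Col9a3* from -0.51 to 0.48 (the latter without WT mouse 1) and *Col11a2* from -0.68 to 0.061 (without P-Apex1KO mouse 1). At 10-dpf *Col9a1* ranged from -0.60 to 0.22, *Col9a2* from -0.27 to 0.48 and *Col9a3* from -0.11 to 0.75, each lowest without WT mouse 4 and highest without WT mouse 3. *Col11a1* in the 10-to-14-dpf change ranged from -0.49 to 0.10. Log2 ratios at 3-dpf ranged from -0.22 to 0.43 for *Col9a3* over *Col2a1*, from -0.45 to 0.025 for *Col11a1* over *Col2a1* and from -0.13 to 0.31 for *Col11a1* over *Col11a2*, and at 14-dpf from -0.20 to 0.15 for *Col9a1* over *Col9a2*. With all mice, *Col2a1* at 3-dpf turned to -0.19 without a sex term, -0.40 with the block and -0.15 with all 30 libraries, and *Col9a2* at 10-dpf to -0.030 with the block. *Col2a1* at 14-dpf, called in the report, turned to -0.18 without a sex term, -0.39 with all 30 libraries and -0.50 without the WT female.

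For the lists at 6-dpf, library size alone gave 2 regulators higher (1), 1 protease higher (0) and 2 other collagens higher (0), DESeq2 gave 11 other collagens lower (7) and 1 higher, and no sex term 1 higher. At 10-dpf DESeq2 gave 1 regulator (0), 2 procollagen genes (0) and 2 receptors (1) higher and 6 other collagens lower (3), library size alone 1, 1 and 2 higher in the same 3 lists, and no sex term 1 other fibrillar collagen lower (2) and 0 other collagens higher (1). At 14-dpf no sex term gave 7 matrix partners higher (12), 17 procollagen genes lower (10), 0 other fibrillar collagens higher (1) and 5 other collagens lower (3) and 4 higher (1), and DESeq2 4 procollagen genes (2) and 2 other collagens (1) higher.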
